A study of Mus musculus with 24 samples.

Results

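The small heat shock proteins and their partner Bag3 were followed through C2C12 muscle tissues after daily optical stimulation. The members are the genes Hspb1, Hspb2, Hspb3, Hspb6, Hspb7, Hspb8, Cryab and Bag3, which were taken by gene symbol from the deposited tables, 8 of 56941 genes listed. RNA came from C2C12, a mouse myoblast line that fuses into contracting myotubes, of the genotype ChR2::tdTomato, which gives the light-gated cation channel ChR2 fused to a red fluorescent protein in every group, controls included. The myoblasts were grown on fibrin hydrogel in medium with fetal bovine serum and were differentiated in medium with 10% horse serum and IGF-1. Each group held 6 biological replicates, and the groups were Control tissues without stimulation and tissues lit for 60 min per day at 1 Hz, 4 Hz or 10 Hz, 24 libraries in all. All tissues derive from a single cell line, and tissues of every group, controls included, also twitched spontaneously. Myotube genes were abundant in all groups, with Acta1, the skeletal muscle actin, at 7325 ± 704 TPM in Control (SD, n = 6), while the 4 adipocyte markers had at most 4 counts in a library and the 6 progenitor and cell cycle markers summed to between 30.4 and 62.1 TPM. That sum hides shifts in both directions in the edgeR test described below, at an adjusted p under 0.05. Of the 6 progenitor and cell cycle markers, 2 were called higher and 1 lower at 1 Hz (50% against 37.3% of all genes). At 4 Hz 2 were called higher and 3 lower (83.3% against 51.4%), and at 10 Hz 0 were called. The 5 fibroblast markers summed to between 289.7 and 557 TPM. In Control, Col3a1 was at 293 ± 54.1 TPM and Dcn at 142 ± 21.3 TPM (SD, n = 6), and Thy1 had at most 1 count in a library. In tissue RNA of this kind, fewer cells of a type and less RNA per cell cannot be told apart.

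Small heat shock proteins share an alpha-crystallin domain and hold unfolded proteins in a soluble state without using ATP. Muscle expresses more of them than most tissues, where they bind desmin, filamin, actin and titin at the Z-disc. Bag3 is a co-chaperone that binds Hspb8 through short motifs and Hsp70 through its BAG domain, and the resulting complex passes damaged filamin to the autophagy machinery, a route called chaperone-assisted selective autophagy. Several of these genes are classical targets of the heat shock factor Hsf1, which binds repeats of the pentamer NGAAN.

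The promoters of Bag3 and Hspb1, which varied most between libraries among the well-sequenced members, and of Cryab, the most abundant member, are printed here for reference. Whether a match in a promoter goes with a level, a call or a correlation was not tested. Each run holds the 250 bases before the start of the canonical GENCODE M39 transcript, read 5′ to 3′ on the strand of the gene in GRCm39, and capitals mark matches to the paired pentamer GAANNTTC or TTCNNGAA.
Hspb1 promoter (chr5:135916510-135916759, plus strand): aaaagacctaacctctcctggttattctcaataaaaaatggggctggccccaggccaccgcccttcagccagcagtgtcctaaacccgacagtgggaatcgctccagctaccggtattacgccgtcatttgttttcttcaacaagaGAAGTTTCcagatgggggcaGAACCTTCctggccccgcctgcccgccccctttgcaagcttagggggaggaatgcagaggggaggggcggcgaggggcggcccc
Bag3 promoter (chr7:128125033-128125282, plus strand): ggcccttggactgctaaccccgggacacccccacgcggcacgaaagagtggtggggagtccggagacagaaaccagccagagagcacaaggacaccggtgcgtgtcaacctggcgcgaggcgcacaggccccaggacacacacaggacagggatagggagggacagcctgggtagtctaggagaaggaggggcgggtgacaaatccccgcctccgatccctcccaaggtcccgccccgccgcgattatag
Cryab promoter (chr9:50663937-50664186, plus strand): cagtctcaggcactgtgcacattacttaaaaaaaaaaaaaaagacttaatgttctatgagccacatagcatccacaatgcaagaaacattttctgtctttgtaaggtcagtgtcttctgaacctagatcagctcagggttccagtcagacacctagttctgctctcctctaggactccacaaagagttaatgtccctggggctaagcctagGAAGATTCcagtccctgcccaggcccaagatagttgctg

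GAANNTTC was searched on both strands, where it reads the same, in the window from 250 bases before to 50 after each start. It was found at 2 places in Hspb1, whose first bases lie at -104 and -84 from the start, at 1 place in Cryab (-39) and at 1 place in Hspb3 (-224), so that 3 of 8 members held it (37.5%) against 7.41% of 21770 windows of protein-coding genes. Hspa1a and Hspa1b, the stress-inducible Hsp70 genes, each held a single match at -104. The window of Bag3 held none, nor did those of Hspb2, Hspb6, Hspb7 and Hspb8. TTCNNGAA was in 0 of 8 members and in 7.98% of all windows. The E-box CAGCTG, which myogenic factors bind, was in 1 member, Hspb2, where it began 25 bases into the transcript, and in 14.9% of all windows. A match is a string of letters, and a window without a match says only that these letters are not in it.

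On GRCm39, Hspb1 (ENSMUSG00000004951) lies at chr5:135916760-135918417 on the plus strand, and Hspb8 (ENSMUSG00000041548) lies at chr5:116546409-116561084 on the minus strand. Bag3 (ENSMUSG00000030847) lies at chr7:128125283-128148705 and Hspb6 (ENSMUSG00000036854) at chr7:30251603-30256218, both on the plus strand. Hspb7 (ENSMUSG00000006221) is at chr4:141148090-141152625 on the plus strand and Hspb3 (ENSMUSG00000051456), a gene of 1 exon, at chr13:113799432-113800212 on the minus strand. Hspb2 (ENSMUSG00000038086, chr9:50662378-50663858, minus strand) and Cryab (ENSMUSG00000032060, chr9:50651859-50668567, plus strand) stand head to head, with 328 bases between the starts of their canonical transcripts. The whole of Hspb2 falls inside the annotated span of the Cryab gene but outside its canonical transcript. In GENCODE M39, 7 of 8 members overlap a gene on the opposite strand, with Hspb1 as the exception. The libraries were directional, but how counting used strand is not given in the sources used here, so reads from such partners may not be separable. The estimated counts of Hspb1 were not whole in 100% of libraries, which shows that reads shared with other sequences were divided in the counting. Those of Cryab were not whole in 58.3%, but each time by only a small fraction of a read.

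Per length, the family was led by Cryab, the alpha B-crystallin that guards desmin, and by Hspb1, an actin-binding member that is phosphorylated under stress. In Control, Cryab stood at 1765 ± 204 TPM (SD, n = 6) and Hspb1 at 1347 ± 326 TPM. Hspb8 (390.0 ± 46.9 TPM), Bag3 (256 ± 94.4 TPM) and Hspb7 (244 ± 24.8 TPM) formed a middle group, Hspb2 (111 ± 5.78 TPM) and Hspb6 (81.6 ± 5.10 TPM) followed, and Hspb3, which pairs with Hspb2 in a muscle-specific oligomer, was lowest at 6.50 ± 0.911 TPM. Cryab exceeded Hspb1 in 23 of 24 libraries and Hspb8 exceeded Bag3 in 23 of 24, whereas Bag3 and Hspb7 did not differ beyond their spread, since Bag3 was the higher in only 13 of 24 libraries. All other neighbours kept this order in 24 of 24 libraries. The closest of these were Hspb2 and Hspb6, whose TPM ratio ran from 1.12 to 2.27, and Hspb7 and Hspb2, whose ratio ran from 1.05 to 2.44.

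**Figure D1:**
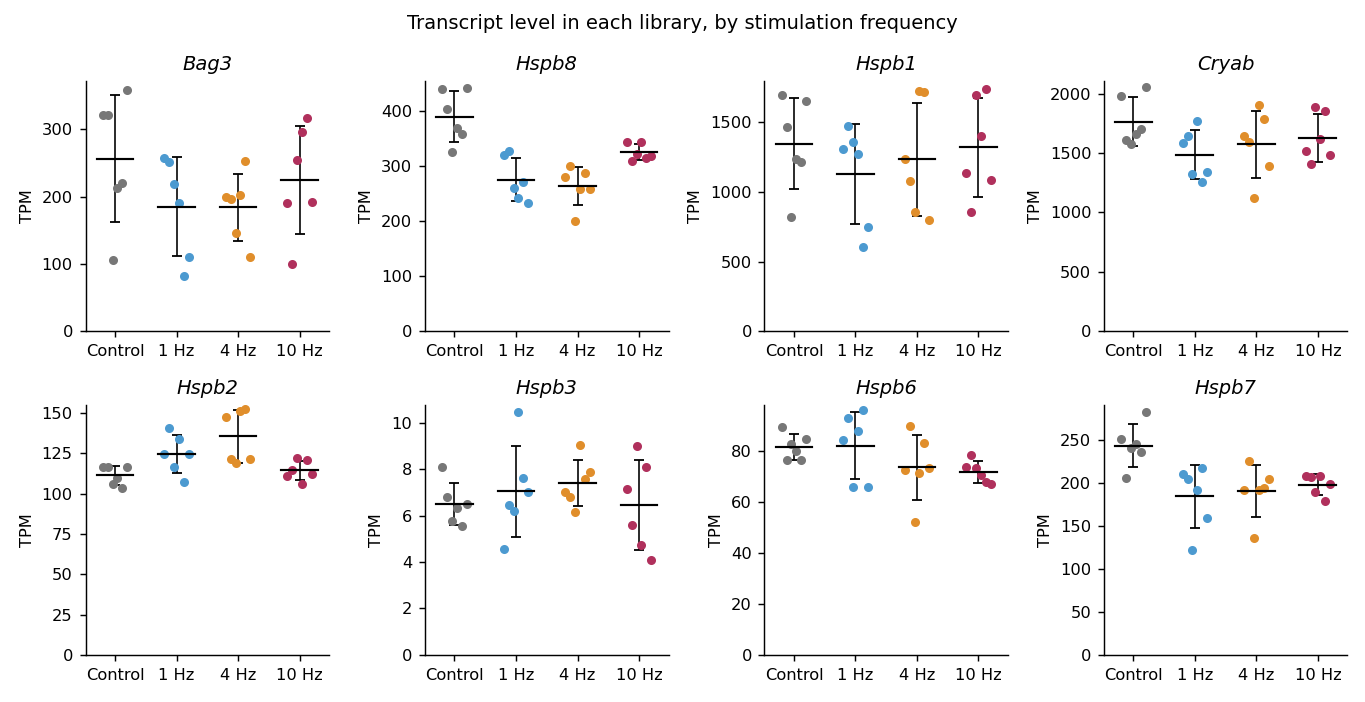
Level of each member in TPM (vertical axis, from 0) in each of the 24 libraries, by stimulation frequency, with a line at the mean and a bar of 1 SD either side (n = 6). Bag3 and Hspb1 spread widely inside every group, from 105 to 358 TPM for Bag3 in Control, while Hspb2 and Hspb6 in Control sit within 104 to 116 TPM and 76.3 to 89.5 TPM.

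Cryab and Hspb1 held similar shares of the family at every frequency. Of the summed TPM of the 7 small heat shock proteins, Cryab held 45.0% ± 2.87 in Control (SD, n = 6), 45.5% ± 3.92 at 1 Hz, 45.5% ± 2.20 at 4 Hz and 44.6% ± 1.54 at 10 Hz. Hspb1 held 33.7% ± 4.25, 33.6% ± 6.70, 34.8% ± 4.85 and 35.5% ± 4.47 in the same order. The share of Hspb8 was 9.92% ± 0.368 in Control, 8.50% ± 1.32 at 1 Hz, 7.75% ± 1.17 at 4 Hz and 9.05% ± 1.32 at 10 Hz, and that of Hspb2 was 2.86% ± 0.314, 3.84% ± 0.469, 3.97% ± 0.505 and 3.17% ± 0.422. No test was run on these shares.

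Stimulation was compared with Control in edgeR, with counts scaled by TMM and p-values adjusted over all 13315 genes tested. All 8 members passed the filter on low counts. At 1 Hz, 3 of 8 members were called at an adjusted p under 0.05, a share of 37.5% against 37.3% of all genes. At 4 Hz 2 of 8 were called, or 25% against 51.4% of all genes, and at 10 Hz edgeR called 0 of 8, against 0.0376% of all genes, with Hspb7 and Hspb8 at an unadjusted p under 0.05 and 0 called by DESeq2 and limma. The log2(fold change) of the members had a median of -0.03 for 1 Hz, 0.16 for 4 Hz and -0.13 for 10 Hz, and the medians over all genes were 0.04, 0.06 and 0.01. The comparisons share their Control libraries, so their values are not independent of each other.

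Hspb2, known for its binding to the myotonic dystrophy kinase in muscle, was the only member called higher at both 1 Hz and 4 Hz. Its CPM, which is scaled for depth and not for length, ran from 34.1 to 40.3 in Control with a median of 37.3. At 1 Hz it ran from 34.0 to 62.1 (median 45.5), at 4 Hz from 43.3 to 65.3 (median 58.6) and at 10 Hz from 33.8 to 44.4 (median 36.0). Every 4 Hz library lay above every Control library, a pattern of 12.9% of all genes, while 4 of 6 libraries did so at 1 Hz and 2 of 6 at 10 Hz. Hspb2 was upregulated at 4 Hz by a log2(fold change) of 0.58 ± 0.12 (SE, adjusted p = 3.3e-04) and at 1 Hz by 0.35 ± 0.12 (adjusted p = 0.023), and at 10 Hz the value was 0.03 ± 0.12 (adjusted p = 0.99). The 1 Hz call was lost without 1 Hz replicate 4 (0.24, adjusted p = 0.11) or without 1 Hz replicate 6 (0.26, adjusted p = 0.090). Replicates 4 and 6 were the deepest libraries of the 1 Hz group (18159144 and 13227360 counts) and had its lowest TMM factors (0.904 and 0.931). Across genes, the chi-square per degree of freedom was 22.1 between them and 41.0 to 74.5 against the rest of their group. That measure also grows with depth. The part of these libraries in the 1 Hz calls was not tested. Hspb2 was the only member past the additional threshold of 0.5 on log2(fold change), which it passed at 4 Hz, where 25.1% of all genes did.

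Cryab, the neighbour of Hspb2 across 328 bases, was not called at any frequency. Values of 639 to 882 CPM were found in Control (median 715), 518 to 1058 at 1 Hz (median 731), 709 to 1075 at 4 Hz (median 810.4) and 589.6 to 873 at 10 Hz (median 652), and all groups overlapped. Its log2(fold change) was -0.02 at 1 Hz (95% interval -0.31 to 0.27), 0.16 at 4 Hz (-0.13 to 0.44) and -0.09 at 10 Hz (-0.38 to 0.19). The TPM ratio of Cryab to Hspb2 was 15.8 ± 1.45 in Control (SD, n = 6). Stimulated tissues had ratios of 11.9 ± 0.902 (1 Hz), 11.6 ± 1.30 (4 Hz) and 14.2 ± 1.35 (10 Hz). The lowest Control ratio, 13.9, was above the highest at 1 Hz, 13.2, and at 4 Hz, 13.1, whereas the 10 Hz ratios of 12.3 to 15.5 overlapped both sides. Hspb2 was itself called at 1 and 4 Hz, and how often the ratios of other gene pairs separated was not counted. Of all single genes, 14.1% at 1 Hz and 27.6% at 4 Hz had no overlap with Control in CPM. Within conditions the neighbours varied together, with r = 0.87 over 24 libraries. This was not particular to the pair, since 3.3% of all other genes followed Hspb2 and 2.73% followed Cryab with r over 0.8. Pebp1 with Hspb2 and Tmem109 with Cryab were each at r = 0.94 within conditions. The mean deviation of 8 myotube genes was followed by Cryab (r = 0.85) and Hspb2 (0.83), and also by Hspb7 (0.76), Hspb3 (0.75) and Hspb6 (0.73), with Hspb8 at 0.58, Hspb1 at 0.49 and Bag3 at 0.36. The summed level of these 8 genes ran from 16295 to 20167 TPM in Control, from 12049 to 18270.2 TPM at 1 Hz, from 14419 to 17911 TPM at 4 Hz and from 15026 to 16962 TPM at 10 Hz. Of the 8, 0 were called higher and 1 lower at 1 Hz, 2 higher and 1 lower at 4 Hz and none at 10 Hz, and their part in the values of the members was not tested.

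Hspb8, the Bag3-bound member of the autophagy complex, was lower after stimulation. Its CPM ran from 334 to 494 in Control (median 426), from 286 to 380.4 at 1 Hz (median 356), from 334 to 384 at 4 Hz (median 356) and from 330.2 to 382 at 10 Hz (median 361). The upper end of every stimulated group lay below the Control median, and the groups overlapped. Hspb8 was downregulated at 1 Hz by a log2(fold change) of -0.30 ± 0.08 (SE, adjusted p = 0.0067) and at 4 Hz by -0.25 ± 0.08 (adjusted p = 0.015). At 10 Hz the value was almost the same, -0.24 ± 0.08, but the adjusted p in edgeR was 0.39. Both calls held without any single library of the comparison. The values at 1, 4 and 10 Hz did not differ from each other in edgeR, with adjusted p = 0.84 for 4 Hz against 1 Hz, 0.65 for 10 Hz against 1 Hz and 0.98 for 10 Hz against 4 Hz.

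Bag3 itself was not called, and its intervals were the widest of the 8 members. Bag3 spanned 158 to 566 CPM in Control (median 431), 126 to 426 at 1 Hz (median 404), 208 to 460.4 at 4 Hz (median 380.4) and 156 to 562 at 10 Hz (median 364). The groups overlapped almost completely. The log2(fold change) was -0.27 at 1 Hz (95% interval -0.96 to 0.42), -0.17 at 4 Hz (-0.86 to 0.52) and -0.16 at 10 Hz (-0.85 to 0.53). The TPM ratio of Bag3 to Hspb8 was 0.642 ± 0.182 in Control, 0.663 ± 0.222 at 1 Hz, 0.697 ± 0.153 at 4 Hz and 0.689 ± 0.244 at 10 Hz (SD, n = 6).

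Hspb1 likewise was not called. Hspb1 spanned 367 to 827 CPM in Control (median 646), 275 to 843 at 1 Hz (median 675), 449 to 1072 at 4 Hz (median 684) and 396 to 908 at 10 Hz (median 580.4). The log2(fold change) was -0.04 (95% interval -0.59 to 0.51) at 1 Hz, 0.19 (-0.36 to 0.75) at 4 Hz and 0.00 (-0.55 to 0.55) at 10 Hz.

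Hspb6, also called Hsp20 and abundant in heart and skeletal muscle, was called higher at 1 Hz by 0.23 ± 0.09 on the log2 scale (SE, adjusted p = 0.044 in edgeR). Its CPM ran from 57.9 to 72.2 in Control (median 61.9), from 57.1 to 96.4 at 1 Hz (median 72.6), from 64.0 to 76.5 at 4 Hz (median 71.6) and from 49.9 to 60.8 at 10 Hz (median 57.5). The call is close to the threshold and was lost when any of 7 of the 12 libraries was left out (Control replicates 2, 3, 4 and 5 and 1 Hz replicates 2, 4 and 6), with values from 0.12 to 0.28 over all 12. The highest 1 Hz value, 96.4 CPM, was in replicate 4, and replicates 4 and 6 are the deep libraries described for Hspb2. At 4 Hz the value was 0.17 ± 0.09 (adjusted p = 0.12) and at 10 Hz -0.17 ± 0.09 (adjusted p = 0.67).

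Hspb7, which is largely restricted to heart and skeletal muscle and binds filamin C, showed its narrowest spread at 10 Hz. Its CPM ran from 363 to 488 in Control (median 412), from 235 to 468 at 1 Hz (median 376), from 369 to 429.6 at 4 Hz (median 421) and from 328 to 353 at 10 Hz (median 348). In CPM all 6 libraries at 10 Hz lay below every Control library, which 0.864% of all genes showed, but the log2(fold change) of -0.28 ± 0.10 (SE) did not pass adjustment in edgeR (adjusted p = 0.42). In TPM these groups overlapped, with 179 to 209 at 10 Hz against 206 to 283 in Control. At 1 Hz the value was -0.19 ± 0.10 (adjusted p = 0.14), which passed the threshold once replicate 4 of that group was left out (-0.29, adjusted p = 0.023). For 4 Hz it was -0.04 ± 0.10 (adjusted p = 0.77).

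Hspb3 was sequenced thinly, with 16 to 94 counts per library, and edgeR did not call it in the fit of all 4 conditions. Levels spanned 2.11 to 3.27 CPM in Control (median 2.51), 1.85 to 5.73 at 1 Hz (median 2.79), 2.90 to 4.67 at 4 Hz (median 3.54) and 1.52 to 3.78 at 10 Hz (median 2.42). At 4 Hz 5 of 6 libraries were above every Control library. The share of all genes with 5 or more above was not counted, and 12.9% had all 6 above. The log2(fold change) of Hspb3 at 4 Hz was 0.51 ± 0.23 (SE, adjusted p = 0.061 in edgeR). It passed where the Control and 4 Hz libraries were fitted alone (0.49, adjusted p = 0.017).

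**Figure D2:**
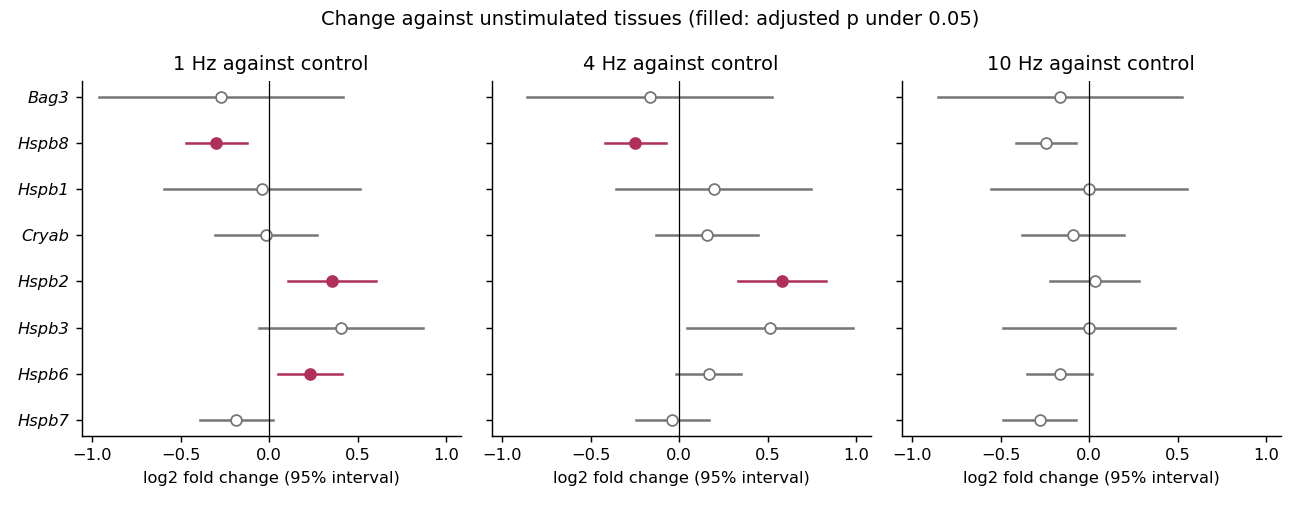
Log2(fold change) of each member against Control (horizontal axis, TMM-scaled counts in edgeR) at 1, 4 and 10 Hz with its 95% interval, filled where the adjusted p was under 0.05. Filled points are Hspb8, Hspb2 and Hspb6 at 1 Hz and Hspb8 and Hspb2 at 4 Hz, and the intervals of Bag3 are the widest, from -0.96 to 0.42 at 1 Hz.

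The scaling of the libraries mattered for these calls. On log2(TPM + 1), where each library is scaled to the same sum after division by length, the median of all genes was shifted by -0.14 at 1 Hz and by -0.21 at 4 Hz, against -0.01 at 10 Hz. On that scale Hspb8 remained downregulated at 1 Hz (-0.50, adjusted p = 6.8e-04 in limma) and 4 Hz (-0.56, adjusted p = 6.7e-05), and Hspb2 remained upregulated at 4 Hz (0.27, adjusted p = 0.0075). The call of Hspb2 at 1 Hz was lost (0.16, adjusted p = 0.15), and that of Hspb6 was lost with a value of 0.00 (adjusted p = 0.99). Hspb7 was called lower on TPM only, at 1 Hz (-0.42, adjusted p = 0.012) and 4 Hz (-0.36, adjusted p = 0.017). The TPM values of Hspb7 at 4 Hz, from 136 to 226, can be set beside those in Control, from 206 to 283. The signs of Hspb1 (-0.15), Hspb6 (-0.16) and Cryab (-0.18) at 4 Hz turned on TPM, and none of the 3 passed the test on either scale.

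The frequencies were also compared with each other. Between 4 Hz and 1 Hz, edgeR called 0 of 8 members, with 0 at an unadjusted p under 0.05 and 0 by DESeq2 and limma, against 0% of all genes. From 1 Hz to 10 Hz 2 of 8 members were called, against 27.9% of all genes, and from 4 Hz to 10 Hz 2 of 8, against 46.3%. Both times these were Hspb6 and Hspb2, and both were lower at 10 Hz. Hspb7 was close to the threshold from 4 Hz to 10 Hz, with -0.24 and an adjusted p of 0.051 in edgeR. It passed with upper-quartile factors (adjusted p = 0.032), with only these groups in the fit (0.0078) and with the replicate number as a block (0.047), and on log2(TPM + 1) its sign turned (0.07, adjusted p = 0.68). Hspb6 differed by -0.40 ± 0.09 from 1 Hz (SE, adjusted p = 0.0020) and by -0.33 ± 0.09 from 4 Hz (adjusted p = 0.0041), with all 6 libraries at 10 Hz below every 4 Hz library, as in 8.1% of all genes. Hspb2 differed by -0.55 ± 0.12 from 4 Hz (adjusted p = 8.2e-04) and by -0.32 ± 0.12 from 1 Hz (adjusted p = 0.047), and the latter call was lost when any of 7 of 12 libraries was left out (1 Hz replicates 2, 4 and 6 and 10 Hz replicates 1, 2, 4 and 6). On log2(TPM + 1) the calls against 1 Hz were lost for both genes, and against 4 Hz Hspb2 kept its call (-0.24, adjusted p = 0.022 in limma) while Hspb6 did not (-0.02, adjusted p = 0.90). There Hspb8 was called higher at 10 Hz than at 4 Hz (0.31, adjusted p = 0.014), which it was not on counts (0.00).

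What set Bag3 and Hspb1 apart was variation between tissues of a single condition. Over all 24 libraries Bag3 ranged 4.50-fold in CPM, from 126 in 1 Hz replicate 5 to 566 in Control replicate 6, and Hspb1 ranged 3.89-fold, from 275 to 1072. Hspb8, Hspb6, Hspb2, Cryab and Hspb7 ranged between 1.73-fold and 2.08-fold, and the thinly sequenced Hspb3 ranged 3.76-fold. The SD of log2 CPM within conditions, on 20 degrees of freedom, was 0.63 for Bag3 and 0.49 for Hspb1, against a median of 0.21 over all genes tested. Among the 5726 genes with a mean log2 CPM of at least 5, Bag3 stood at percentile 99.3 and Hspb1 at percentile 98.9. The other members at that level of expression lay lower, with SDs of 0.26 for Cryab, 0.22 for Hspb2, 0.19 for Hspb7, 0.15 for Hspb6 and 0.15 for Hspb8.

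**Figure D3:**
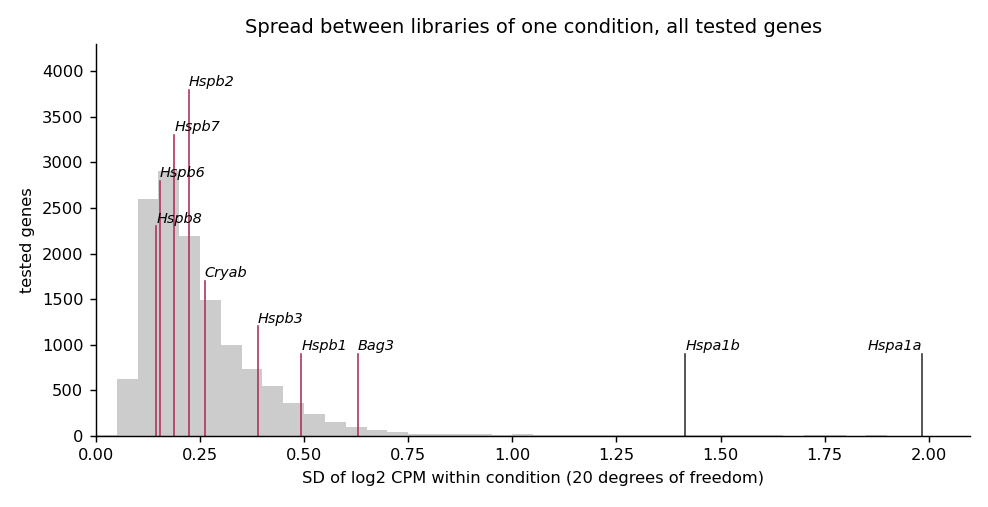
SD of log2 CPM between libraries of a single condition (horizontal axis, 20 degrees of freedom) for all 13315 genes tested (grey bars, number of genes), with lines at the members in red and at Hspa1a and Hspa1b in black. Bag3 (0.63) and Hspb1 (0.49) lie in the right tail, Hspb8 (0.15) and Hspb6 (0.15) lie left of the median of 0.21, and the height of the lines carries no value.

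The variation of Bag3 and Hspb1 was shared, and it was shared with the inducible Hsp70 genes. After the mean of each condition was removed, Bag3 and Hspb1 correlated with Pearson's r = 0.93 (n = 24 libraries, 0.89 without the 2 farthest from the median of Hspb1), and Bag3 correlated with Hspa1a at r = 0.97 and with Hspa1b at r = 0.98. The points share their libraries, depth and scaling, so these values are given as descriptions. The library with the lowest Bag3 of its condition was also the lowest in Hspb1, Hspa1a and Hspa1b in all 4 conditions, namely Control replicate 3, 1 Hz replicate 5, 4 Hz replicate 6 and 10 Hz replicate 2. In these 4 libraries Bag3 was at 105, 81.7, 109.7 and 100.1 TPM, and Hspa1a was at 19.8, 5.96, 48.4 and 9.08 TPM, which were its 4 lowest values over the 24 libraries, the highest being 562 TPM. Hspa1a and Hspa1b are near-identical copies, so the division of reads between them is uncertain. Without these 4 libraries the SD within conditions was 0.34 for both Bag3 and Hspb1, and r was 0.84 between Bag3 and Hspb1 and 0.92 between Bag3 and Hspa1a over the remaining 20. Neither gene followed depth, with r = -0.02 for Bag3 and r = -0.01 for Hspb1 against log2 of the total count within conditions. Among the other members r with depth was 0.40 for Hspb3, 0.34 for Hspb7, 0.31 for Hspb6, 0.21 for Hspb2, 0.18 for Cryab and 0.10 for Hspb8.

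**Figure D4:**
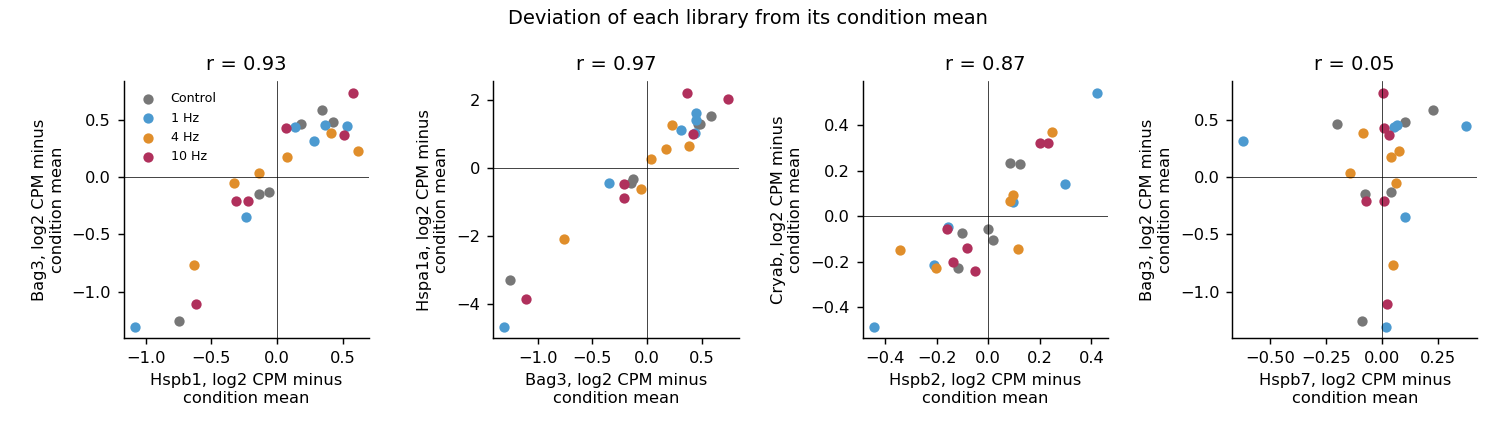
Deviation of each library from the mean of its condition in log2 CPM (both axes), for 4 pairs of genes over 24 libraries coloured by condition. Bag3 followed Hspb1 (r = 0.93) and Hspa1a followed Bag3 (r = 0.97), with a low library from each condition at the lower left, Cryab followed Hspb2 (r = 0.87), and Bag3 did not follow Hspb7 (r = 0.05).

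The remaining members followed this variation to different degrees. Hspb8 varied with Bag3 at r = 0.81 but over a narrower range, and Cryab varied with Hspb1 at r = 0.83 and with Bag3 at r = 0.69. Hspb2 (r = 0.50), Hspb3 (0.25), Hspb6 (0.19) and Hspb7 (0.05) followed Bag3 less. Hspb6 and Hspb7 correlated with r = 0.81, which rested in part on 2 libraries, since r was 0.54 without the 2 libraries farthest from the median of Hspb6, and inside the conditions it ran from 0.51 to 0.91. Hspb2 and Cryab correlated with r = 0.87, or 0.80 without the 2 farthest libraries. Without the 4 libraries of lowest Bag3, the values with Bag3 fell to 0.62 for Hspb8, 0.49 for Cryab and 0.25 for Hspb2, while Cryab with Hspb1 was at 0.75, Hspb6 with Hspb7 at 0.83 and Hspb2 with Cryab at 0.84.

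**Figure D5:**
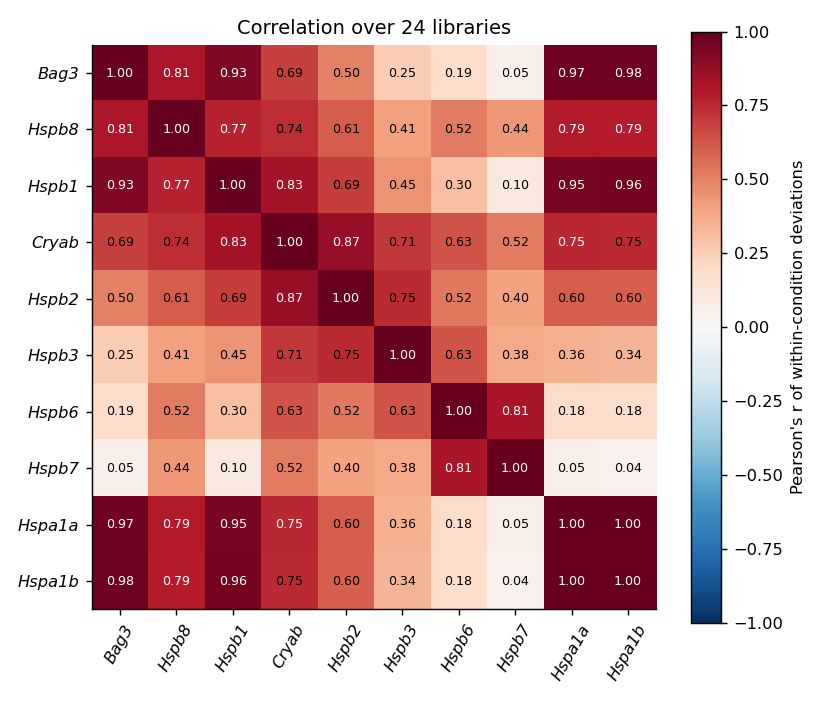
Pearson's r between deviations from the condition mean in log2 CPM for the 8 members, Hspa1a and Hspa1b (rows and columns, printed in each cell), over 24 libraries. Bag3, Hspb1, Hspa1a and Hspa1b form a block with r of at least 0.93, Hspb8 and Cryab join it with r between 0.69 and 0.83, and Hspb6 and Hspb7 (0.81) stand outside it with r of at most 0.30 to its 4 genes.

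Across the table, 133 of 13314 other genes (0.999%) followed Bag3 with r over 0.8 within conditions, and 10 of the 19 listed heat shock factors and inducible chaperones were among them. These included Hspa8, the constitutive Hsp70 (r = 0.96), Dnajb1, the Hsp40 that activates it (0.97), Hsph1, its nucleotide exchange factor (0.95), and Hsp90aa1, the inducible Hsp90 (0.94). The factor Hsf1 itself did not (r = -0.08), with r from -0.85 in Control to 0.32 at 4 Hz inside the conditions. Hspa4, a further Hsp110-type exchange factor, ran the other way (r = -0.86). For Hspb1 the number was 9 of 19, where 1.47% of all other genes passed, for Cryab 4 (2.73%) and for Hspb8 3 (0.21%). It was 0 for Hspb2 (3.3%), Hspb3 (0.714%), Hspb6 (0.383%) and Hspb7 (0.428%). These counts were made on all 24 libraries only. Over the 20 libraries left without the lowest Bag3 of each condition, r with Bag3 was 0.87 for Hspa8 and 0.93 for Dnajb1. It was 0.78 for Hsph1, 0.85 for Hsp90aa1 and 0.35 for Hsf1. Over the same 20 libraries Hspb8 was at 0.57 with Hspa8 and 0.70 with Dnajb1.

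The genes whose log2 CPM was most like each member over the 24 libraries, conditions included, were Hspa1a (r = 0.96) and Hspa1b (0.96) for Bag3, and Hspa1b (0.96) and Hsp90ab1 (0.95) for Hspb1. For Hspb8 they were Rrad (0.88) and Stip1 (0.85), and for Cryab they were Gss (0.92) and Tmem109 (0.91). For Hspb2 they were Pebp1 (0.97) and Timm13 (0.96), and for Hspb3 they were Sdhc (0.90) and Myl12a (0.89). Hspb6 was most like Abra (0.91), an actin-binding protein of striated muscle, and Lmcd1 (0.91), a muscle LIM protein. Hspb7 was most like Adprhl1 (0.93) and Pygm (0.89), the muscle glycogen phosphorylase.

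Of 13 listed partners of Bag3 in chaperone-assisted autophagy, all were tested. At 1 Hz 2 were called higher and 3 lower, or 38.5% against 37.3% of all genes, and at 4 Hz 3 higher and 4 lower, or 53.8% against 51.4%, shares near those of all genes. At 10 Hz edgeR, DESeq2 and limma called 0, with 1 at an unadjusted p under 0.05 in edgeR. The list had a median log2(fold change) of -0.06, -0.09 and 0.03. Upregulated were Stub1, the CHIP ubiquitin ligase (0.34 ± 0.08 for 1 Hz, SE, adjusted p = 0.0030, 0.40 ± 0.08 for 4 Hz, adjusted p = 3.7e-04), and Map1lc3b, the LC3 of the autophagosome membrane (0.33 ± 0.07, adjusted p = 9.6e-04, and 0.40 ± 0.07, adjusted p = 6.4e-05). On log2(TPM + 1) Stub1 was at 0.13 and 0.07 and was not called (adjusted p = 0.33 and 0.60 in limma), and Map1lc3b was at 0.17 and 0.21 and was called at 4 Hz alone (adjusted p = 0.059 and 0.012). Downregulated were Ywhag, the 14-3-3 protein that ties Bag3 to dynein (-0.53 ± 0.10, adjusted p = 1.7e-04, and -0.72 ± 0.10, adjusted p = 2.4e-06), and Vps18, a subunit of the vacuolar tethering complex (-0.38 ± 0.08, adjusted p = 9.1e-04, and -0.47 ± 0.08, adjusted p = 5.6e-05). Sqstm1, the p62 receptor, was also downregulated, by -0.27 ± 0.07 at 1 Hz and by -0.34 ± 0.07 at 4 Hz.

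Of the 19 heat shock factors and inducible chaperones, 0 were called higher and 4 lower at 1 Hz, or 21.1% against 37.3% of all genes, and 2 higher and 5 lower at 4 Hz, or 36.8% against 51.4%. None was called at 10 Hz in edgeR, where 0 had an unadjusted p under 0.05 and DESeq2 and limma also called 0. The median log2(fold change) was -0.13, -0.07 and -0.04. Chordc1, an Hsp90 co-chaperone, was downregulated most, by -1.03 ± 0.09 at 1 Hz (SE, adjusted p = 1.2e-08) and by -1.45 ± 0.10 at 4 Hz (adjusted p = 2.4e-11). Hspd1, the mitochondrial Hsp60, was downregulated by -0.50 ± 0.08 at 1 Hz (adjusted p = 2.1e-05) and by -0.66 ± 0.08 at 4 Hz (adjusted p = 2.7e-07). At 4 Hz Dnajb1 was upregulated by 1.26 ± 0.48 (adjusted p = 0.034) and Serpinh1, the collagen chaperone of the endoplasmic reticulum, by 0.18 ± 0.07 (adjusted p = 0.039). Neither was called on log2(TPM + 1) in limma, where Dnajb1 was at 1.13 (adjusted p = 0.074) and the sign of Serpinh1 turned (-0.15, adjusted p = 0.24). Hspa1a and Hspa1b were not called, with a 95% interval of -1.97 to 1.70 on the log2 scale for Hspa1a at 1 Hz.

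Of the cytoskeletal clients 1 of 6 was called for 1 Hz, or 16.7% against 37.3% of all genes, and 2 of 6 for 4 Hz, or 33.3% against 51.4%. For 10 Hz edgeR called 0 of 6, with 0 at an unadjusted p under 0.05 and 0 called by DESeq2 and limma. Vim, the intermediate filament of immature muscle, was upregulated by 0.29 ± 0.09 at 1 Hz (SE, adjusted p = 0.017 in edgeR) and by 0.33 ± 0.09 at 4 Hz (adjusted p = 0.0042), and Flna was downregulated at 4 Hz by -0.48 ± 0.17 (adjusted p = 0.020). On log2(TPM + 1) Vim was not called (0.13 and 0.06, adjusted p = 0.46 and 0.73 in limma), whereas Flna was (-0.60, adjusted p = 0.0071). Of 9 further genes listed by name beside the small heat shock proteins and Bag3, 6 were tested. Whether their proteins hold an alpha-crystallin or BAG domain was not checked. Hspb11 was upregulated at 1 Hz (0.67 ± 0.17, adjusted p = 0.0036) and 4 Hz (0.82 ± 0.17, adjusted p = 3.6e-04). Bag1 was called higher at 4 Hz in edgeR (0.24 ± 0.10, adjusted p = 0.045) but not in DESeq2 (0.21, adjusted p = 0.078), and its sign turned on log2(TPM + 1) (-0.10, adjusted p = 0.21 in limma). For 4 Hz DESeq2 called 1 of these genes, where edgeR called 2 and limma on log2(TPM + 1) called 4. The share in edgeR was 33.3%, against 51.4% of all genes, and shares of all genes were not counted for the other tools. Hspb9 was listed at 0 in all 24 libraries, Cryaa, the lens partner of Cryab, had at most 6 counts in a library and Odf1 at most 1.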

How the data were processed

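RNA of 24 C2C12 tissues was sequenced on a Singular G4 in a 50-base paired-end configuration after poly(A) selection. Low-input samples, not named in the labels, had ribosomal RNA removed instead. The authors used nf-core/rnaseq with the Ensembl GRCm39 annotation, and the deposited estimated counts per gene are Salmon values, neither whole nor normalized. The deposited TPM values were made by the authors' pipeline, divided by transcript length and scaled to a fixed sum per library. The submitters' processing notes also name BWA 0.7.12-r1039, bedtools 2.25.0 and STAR without a role. How strand was used is not given in the sources used here.

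Total estimated counts ran from 8052369 to 18159144 per library. Estimated counts were rounded and tested with edgeR 4.0.16 in R 4.3.3 (filterByExpr with a minimum count of 10 and a minimum total of 15, TMM, robust quasi-likelihood F test, a mean for each of 4 conditions in a single fit, Benjamini-Hochberg adjustment over 13315 genes, threshold 0.05). The biological coefficient of variation was 14.8%. Standard errors are the log2(fold change) over the root of F, or Wald errors from the same fit where the change was below 0.01. CPM are TMM-scaled, and log2 CPM used a prior count of 2. Genes that reached 1 TPM in at least 6 libraries were also tested with limma 3.58.1 on log2(TPM + 1), a scale that understates the fold change of low genes. DESeq2 1.42.0, with and without apeglm 1.24.0, served as an alternative. The edgeR test, DESeq2 without apeglm and limma on log2(TPM + 1) were tried on simulated counts with known changes. The other steps were not tested on simulated data. Correlations are Pearson's r of log2 CPM after removal of the condition means, given without p-values. Whether same-numbered replicates pair was checked from the correlation of their deviations.

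The members and lists were chosen with earlier results of these data known. The named genes are all 8 members, up to 2 genes per direction and list with the smallest p, any listed gene at 0 throughout, and the 2 genes most like each member; Sqstm1 and the genes given with r to Bag3 were named after their values were seen. Leaving out the library with the lowest Bag3 of each condition was also chosen after seeing the data. Promoters were read from GRCm39 at GENCODE M39 canonical starts. The 30-min experiment was not analysed here.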

Additional observations from a re-analysis of the deposited data

Results flagged for a closer look

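The level of Hspb7 in 10 Hz replicate 6 stood apart from the other 5 libraries of its group, at 328 CPM against a next lowest value of 346 CPM, a gap of 0.722 of the range of the group. It was flagged because this gap exceeds Dixon's critical value for 6 samples. The 8 members in 4 conditions gave 32 such groups, of which about 1.6 would be flagged by chance. The whole range of the group was narrow, from 328 to 353 CPM, and without this library the log2(fold change) of Hspb7 at 10 Hz against Control was -0.26 (adjusted p = 0.52 in edgeR), against -0.28 with it (adjusted p = 0.42).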

How the results depend on the processing

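The calls of Hspb8 at 1 and 4 Hz and of Hspb2 at 4 Hz held under all 10 other settings of scaling, filter, samples, block, tool and unit and without any single library, while those of Hspb6 and of Hspb2 at 1 Hz, and against 1 Hz, did not. The cause was not tested. These settings are not separate checks. DESeq2 with and without apeglm share their adjusted p-values, and the limma settings differ only in the value added to TPM. Hspb3 had 16 to 94 counts per library, and Bag3 and Hspb1 had an SD within conditions of 0.63 and 0.49 in log2 CPM; their part in the missing calls was not tested.

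With the further threshold of 0.5 on log2(fold change), 0 members were called at 1 Hz, 1 at 4 Hz, 0 between 10 and 1 Hz and 1 between 10 and 4 Hz, with 1 autophagy partner at 1 Hz and 1 at 4 Hz, and 2 and 3 of the heat shock factors and inducible chaperones. The shares of all genes were 14.9% at 1 Hz, 25.1% at 4 Hz, 10.8% between 10 and 1 Hz and 21.2% between 10 and 4 Hz. On log2(TPM + 1) and on log2(TPM + 0.1), 9 of the heat shock factors and inducible chaperones were called at 1 Hz, and 0 members between 10 and 1 Hz. On log2(TPM + 1) all 9 were lower, where the median of all genes was -0.14. The share of all genes called on TPM was not counted. Between 10 and 1 Hz 1 member was called with no filter and 1 with only the 2 groups in the fit. Without a single library, 1 to 3 members were called at 1 Hz (1 without 1 Hz replicate 6) and 1 to 2 between 10 and 1 Hz. The shares of all genes called with no filter, with only the 2 groups or without a single library were not counted either.

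Replicate numbers did not pair the tissues: the deviations of 36 same-numbered pairs correlated between -0.22 and 0.11, with 1 over 0.1, and 0 of 24 libraries matched best with their own number. With the replicate number as a block, the members called against Control were 2 at 1 Hz, 2 at 4 Hz and 0 at 10 Hz. Between frequencies they were 0 for 4 against 1 Hz, 1 for 10 against 1 Hz and 3 for 10 against 4 Hz. The share of all genes called in the block fit was not counted, so these counts cannot be set beside it. In that fit the log2(fold change) of Hspb3 at 10 Hz was -0.0036.

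Of the values whose sign turned, Hspb6 at 1 Hz was the only one called in edgeR with all libraries. On log2(TPM + 1) against Control, Hspb6 at 1 Hz was -0.0033, Hspb1, Hspb6 and Cryab at 4 Hz were -0.15, -0.16 and -0.18, and Hspb3 at 10 Hz was -0.045. On log2(TPM + 0.1) these were -0.0035, -0.15, -0.16, -0.18 and -0.058. Between frequencies, with values on log2(TPM + 1) and then on log2(TPM + 0.1), Hspb8 for 4 against 1 Hz was -0.061 and -0.062, Hspb7 and Cryab for 10 against 1 Hz were 0.13 and 0.13 on both, and Hspb1, Hspb7 and Cryab for 10 against 4 Hz were 0.12, 0.069 and 0.062 on the former and 0.12, 0.070 and 0.062 on the latter. With upper-quartile factors, Cryab at 1 Hz was 0.0032, Hspb1 and Hspb3 at 10 Hz were 0.0011 and -0.00055, and Hspb8 and Bag3 for 10 against 4 Hz were -0.031 and -0.027. Hspb3 at 10 Hz was -0.0040 with RLE factors, -0.010 with no filter, -0.0068 with only the 2 groups, -0.0028 in DESeq2 and -6.4e-05 with apeglm.

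Without a single library, Hspb1 ran from -0.18 to 0.11 at 1 Hz, from -0.13 to 0.11 at 10 Hz and from -0.11 to 0.16 for 10 against 1 Hz. Cryab ran from -0.17 to 0.066 at 1 Hz and from -0.16 to 0.066 for 10 against 1 Hz. Bag3 ran from -0.066 to 0.22 for 4 against 1 Hz, from -0.061 to 0.27 for 10 against 1 Hz and from -0.14 to 0.18 for 10 against 4 Hz. Hspb2 at 10 Hz ran from -0.019 to 0.062, Hspb3 at 10 Hz from -0.14 to 0.12 and Hspb7 at 4 Hz from -0.082 to 0.0095. Hspb6 for 4 against 1 Hz ran from -0.13 to 0.020, Hspb7 for 10 against 1 Hz from -0.18 to 0.00061 and Hspb8 for 10 against 4 Hz from -0.013 to 0.047.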
